A study of Caenorhabditis elegans with 12 samples.

Results

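The genes described are the 4 adenine nucleotide translocator genes of Caenorhabditis elegans, ant-1.1, ant-1.2, ant-1.3 and ant-1.4, and the uncoupling protein gene ucp-4. They are 5 of the 46748 genes in the count table, taken by their WormBase symbols. They were chosen by a measured pattern as well, the use of paralogues with age, so levels at 15 against 5 days are given as a description without a test. Adenine nucleotide translocators sit in the inner membrane of mitochondria and exchange ADP from the cytosol for ATP made in the matrix, which ties them to ATP synthase and to every use of ATP outside the organelle. Uncoupling proteins belong to the same family of mitochondrial solute carriers, and several of them let protons return to the matrix without ATP being made. In C. elegans, ucp-4 is the gene of this kind and has been described as a carrier of succinate.

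The 12 RNA-seq libraries came from whole worms, hermaphrodites of the wild-type strain N2, with 3 libraries per group. The groups were worms at 15 days after 100 nM rotenone, worms at 15 days with 0.1% dimethyl sulfoxide (DMSO), worms at 5 days after 100 nM rotenone and worms at 5 days with 0.1% DMSO. Rotenone, an inhibitor of complex I of the respiratory chain, was given for 24 h beginning at the last larval stage, L4. When and how long DMSO was given, whether it was also given with rotenone, what age was counted from and how progeny were kept out are not stated in the labels. Nothing says that the 3 libraries of a group came from separate cultures, so p-values measure the spread between these libraries, which may be technical.

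Totals of assigned counts ran from 34307432 to 53716605 per library. Levels are in CPM (each library's counts divided by its scaled total) scaled with TMM factors, which equalise the bulk of genes between libraries, and levels of different genes are compared only per kilobase of exon. In RNA of whole worms, fewer cells of a type and less RNA per cell cannot be told apart. The summed levels of intestine and muscle markers differed with age, and at 5 days with treatment. The summed level of 8 intestine markers ran from 782 to 869 CPM in rotenone worms and from 824 to 896 CPM in DMSO worms at 15 days, and from 2943 to 3284 CPM in rotenone worms and from 4423 to 4838 CPM in DMSO worms at 5 days. The summed level of 7 body wall muscle markers ran from 1135 to 1277 CPM, from 1226 to 1325 CPM, from 1871 to 1888 CPM and from 2150 to 2366 CPM in the same order of groups. That of 9 germline and oocyte markers stayed between 6548 and 7068 CPM in all 12 libraries. Single markers of this list still moved with age, 4 up and 5 down under each treatment with TMM factors. The gene glh-1 averaged 493, 487, 261 and 333 CPM in the same order of groups, and cbd-1 1761, 1729, 2012 and 1956 CPM. Single markers of intestine and muscle did not all follow the sums. For rotenone minus DMSO at 5 days with TMM factors, 5 of 8 intestine markers had a negative and 3 a positive log2 difference. In muscle 6 had a negative and 1 a positive one. The intestine marker asp-1 averaged 1824 CPM in rotenone worms and 3077 CPM in DMSO worms at 5 days, and pept-1 58.3 and 58.1 CPM. The part of these tissues in the results below was not tested.

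All 5 genes code for proteins, and no other annotated gene overlaps any of them on either strand. In build WBcel235, ant-1.1 (WBGene00006439) lies on the forward strand of chromosome III from 13463163 to 13464652 and has 4 exon blocks of 1284 bp in all. The gene ant-1.2 (WBGene00007057) is a single exon of 903 bp on the reverse strand of chromosome I, from 6730057 to 6730959. Both ant-1.3 (WBGene00010485, 9708168 to 9709305) and ant-1.4 (WBGene00020140, 8459178 to 8460308) are on the reverse strand of chromosome IV, with 3 exon blocks each, of 1038 bp and 1022 bp. The gene ucp-4 (WBGene00006729) has 7 exon blocks of 1345 bp on the forward strand of chromosome V, from 9334298 to 9336671. The lengths implied by the deposited RPKM table were 1363 bp for ant-1.1, 1012 bp for ant-1.3, 947 bp for ant-1.4 and 1268 bp for ucp-4. For ant-1.2 it was 1390 bp, so that its level per length depends on the annotation used. The ant-1 genes are similar in sequence, and the treatment of reads that match more than 1 place is not given in the sources used here, which leaves the values of the 3 rare paralogues uncertain.

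Almost all adenine nucleotide translocator RNA came from ant-1.1. It averaged 3385 ± 79.5 CPM in rotenone worms and 3289 ± 37.3 CPM in DMSO worms at 15 days, and 3429 ± 70.8 CPM in rotenone worms and 3648 ± 125 CPM in DMSO worms at 5 days (SD, n = 3 each). Per kilobase of exon this gene ranked 11th, 17th, 8th and 12th among the tested genes of the 4 groups in that order, and it took 0.333%, 0.327%, 0.362% and 0.355% of all assigned counts. In single libraries the level of ant-1.1 was 3334, 3477 and 3346 CPM in rotenone worms and 3246, 3315 and 3305 CPM in DMSO worms at 15 days. At 5 days it was 3410, 3370 and 3508 CPM in rotenone worms and 3557, 3790 and 3598 CPM in DMSO worms. The whole range over 12 libraries was thus narrow. With TMM factors the DMSO worms of 5 days were highest and the DMSO worms of 15 days lowest, and the rotenone groups of both ages overlapped with each other and lay between the DMSO groups without overlapping either of them. By share of all counts the rotenone worms of 5 days were highest.

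**Figure D1:**
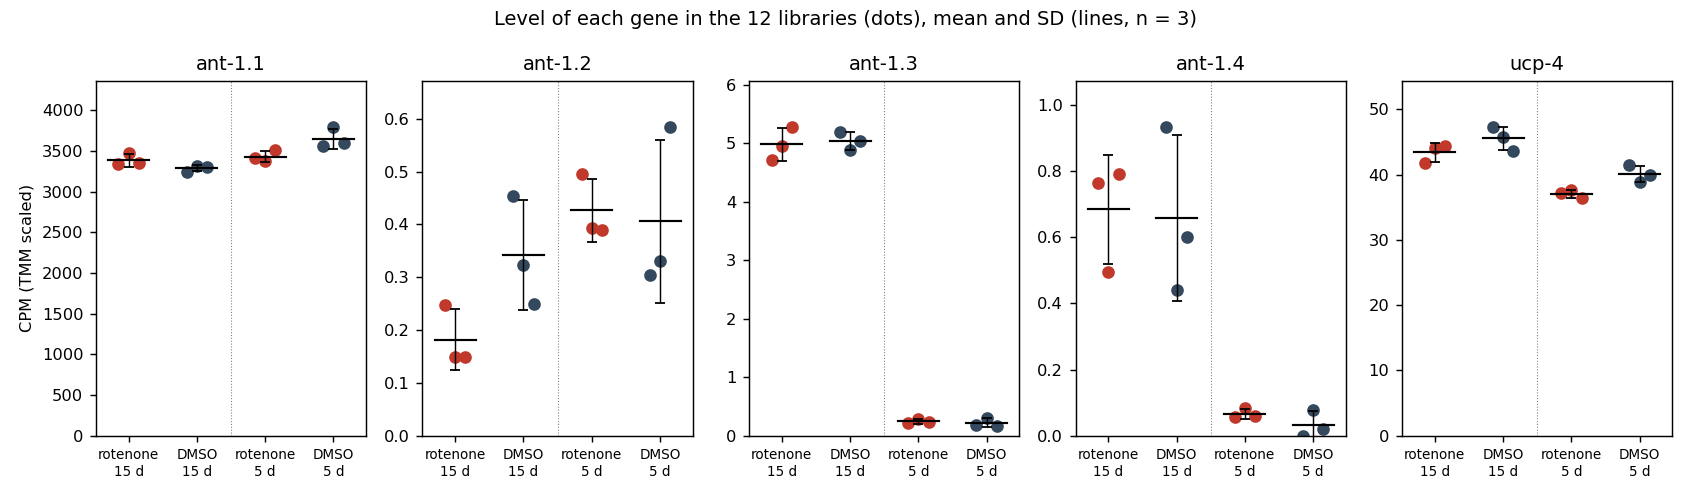
Levels of the 5 genes in CPM (vertical axes, each from 0) in the 4 groups; dots are libraries and lines the mean and SD of 3. The ant-1.3 and ant-1.4 libraries of 15 days stand above those of 5 days under both treatments, while ant-1.1 stays between 3246 and 3790 CPM in all 12.

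The paralogue ant-1.3 had the highest fitted difference between ages of the 5 genes over all 12 libraries. Its level was 4.71, 4.96 and 5.27 CPM in rotenone worms and 5.19, 4.89 and 5.04 CPM in DMSO worms at 15 days, against 0.210, 0.290 and 0.234 CPM in rotenone worms and 0.187, 0.311 and 0.173 CPM in DMSO worms at 5 days. The 6 libraries of 15 days all stood above the 6 of 5 days, and within an age rotenone and DMSO libraries overlapped. The counts behind these levels were 247, 200 and 213 in rotenone worms and 206, 166 and 243 in DMSO worms at 15 days, but 11, 14 and 12 in rotenone worms and 8, 16 and 8 in DMSO worms at 5 days. In DMSO worms the log2 difference of 15 minus 5 days was 4.45 ± 0.16 (SE), which is 21.9-fold, and after rotenone it was 4.34 ± 0.16, which is 20.2-fold. The ratio of summed counts at equal scaled depth was 22.2 in DMSO worms, with a 95% interval of counting error from 15.5 to 32.7, and 20.4 after rotenone, with an interval from 14.6 to 29.2. Of 17166 tested genes, 26 others had a log2 difference of age at least as high in DMSO worms and 36 after rotenone. This rank is a description only, since age entered the choice of the genes.

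The paralogue ant-1.4 had the same order at lower levels. It had 40, 20 and 32 counts in rotenone worms and 37, 15 and 29 counts in DMSO worms at 15 days, against 3, 4 and 3 counts in rotenone worms and 0, 4 and 1 counts in DMSO worms at 5 days. The mean level was 0.684 ± 0.163 CPM in rotenone worms and 0.659 ± 0.250 CPM in DMSO worms at 15 days, and 0.0662 ± 0.0145 CPM in rotenone worms and 0.0331 ± 0.0402 CPM in DMSO worms at 5 days (SD, n = 3 each). All libraries of 15 days stood above all libraries of 5 days. The count of 0 in 1 DMSO library of 5 days allows a level of up to 0.0702 CPM, which is above the levels of several other libraries of that age. The ratio of summed counts of 15 over 5 days was 18.7 in DMSO worms (95% interval of counting error 7.68 to 59.0) and 10.5 after rotenone (5.46 to 22.6). The log2 differences in the fit were 4.12 ± 0.51 and 3.33 ± 0.43 (SE), with 36 and 80 other tested genes at least as high. All 5 genes passed the filter on low counts, ant-1.4 only through the libraries of 15 days. A difference of this direction was thus built into its being tested, and its ranks among tested genes are no support for it. Without DMSO replicate 2 of 5 days, which leaves 1 count in that group, its log2 difference in DMSO worms was 5.57, above that of ant-1.3 at 4.79. These intervals cover counting error only, since reads without molecular identifiers are not independent molecules.

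The paralogue ant-1.2 did not share this pattern. It had 13, 6 and 6 counts in rotenone worms and 18, 11 and 12 counts in DMSO worms at 15 days, and 26, 19 and 20 counts in rotenone worms and 13, 17 and 27 counts in DMSO worms at 5 days. In CPM the libraries stood at 0.248, 0.149 and 0.149 in rotenone worms and 0.454, 0.324 and 0.249 in DMSO worms at 15 days, and at 0.496, 0.394 and 0.390 in rotenone worms and 0.304, 0.331 and 0.584 in DMSO worms at 5 days. The order of the means was rotenone at 5 days, DMSO at 5 days, DMSO at 15 days and rotenone at 15 days, and the 3 highest groups overlapped with each other. The log2 difference of 15 minus 5 days was -0.27 ± 0.32 in DMSO worms, where the groups overlapped and where the value turned to 0.08 without DMSO replicate 3 of 5 days, and -1.18 ± 0.34 after rotenone, where they did not overlap.

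The level of ucp-4 was higher at 15 than at 5 days under both treatments. It was 41.7, 44.1 and 44.4 CPM in rotenone worms and 47.2, 45.8 and 43.7 CPM in DMSO worms at 15 days, and 37.2, 37.6 and 36.4 CPM in rotenone worms and 41.4, 38.9 and 39.9 CPM in DMSO worms at 5 days. The 15-day groups overlapped with each other, and with TMM factors the rotenone worms of 5 days were the lowest of the 4 groups without overlap with any other. By share of all counts, 0.00391% in rotenone worms and 0.00388% in DMSO worms of 5 days, the DMSO worms were lowest. The log2 difference of 15 minus 5 days was 0.18 ± 0.04 in DMSO worms and 0.23 ± 0.04 after rotenone (SE), and it was positive with each of 3 scalings of the libraries. For ant-1.1 the same difference was -0.15 ± 0.03 in DMSO worms, negative with all 3 scalings. After rotenone it was -0.02 ± 0.03 with TMM factors, 0.07 with RLE factors and -0.12 with library totals, so that no direction holds there.

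Separation by age was common in these libraries. In DMSO worms 77% of tested genes had 3 libraries of 15 days that did not overlap the 3 of 5 days, and 4 of the 5 genes, all but ant-1.2, were among them. After rotenone the share of all tested genes was 81.3%, and 4 of the 5 genes, all but ant-1.1, did not overlap. These counts are descriptive, since age entered the choice of the genes.

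Per kilobase of exon, ant-1.1 made up 99.79% of the summed level of the 4 ant-1 genes in rotenone worms and 99.77% in DMSO worms at 15 days, and 99.97% in rotenone worms and 99.98% in DMSO worms at 5 days. The 3 rare paralogues together took 0.215% ± 0.0152 in rotenone worms and 0.229% ± 0.0212 in DMSO worms at 15 days, and 0.0290% ± 0.00244 in rotenone worms and 0.0245% ± 0.00558 in DMSO worms at 5 days (SD, n = 3 each). Their make-up also differed. Of the summed level of the rare paralogues, ant-1.3 held 84.7% in rotenone worms and 82.6% in DMSO worms at 15 days, and 30.5% in rotenone worms and 30.9% in DMSO worms at 5 days. The share of ant-1.2 was 3.55% in rotenone worms and 6.45% in DMSO worms at 15 days, and 61.1% in rotenone worms and 64.5% in DMSO worms at 5 days, or 49.6% and 53.3% at 5 days with the lengths implied by the RPKM table. The share of ant-1.4 was 11.8%, 10.96%, 8.38% and 4.65% in the same order of groups.

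**Figure D2:**
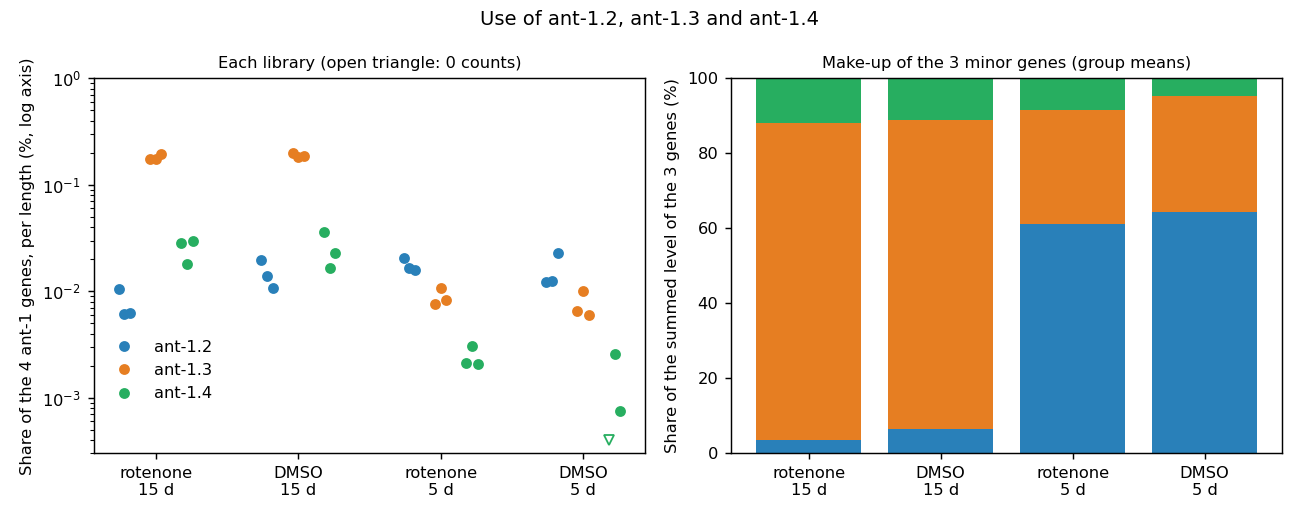
Left, share of ant-1.2, ant-1.3 and ant-1.4 in the summed level per kilobase of the 4 ant-1 genes (percent, log axis) in each library; right, the make-up of these 3 genes by group mean (percent). The ant-1.3 share is 0.182% in rotenone worms and 0.189% in DMSO worms at 15 days, above 0.00884% and 0.00754% at 5 days.

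Within an age no difference in the use of the paralogues between rotenone and DMSO worms passed a test. Over 8 comparisons of a gene's share between rotenone and DMSO, exact two-sided permutation tests gave p from 0.1 to 1 and Benjamini-Hochberg adjusted p from 0.667 to 1, where 3 against 3 libraries cannot go below 0.1. The lowest p belonged to ant-1.2 at 15 days, whose share was 0.00764% ± 0.00253 in rotenone worms and 0.0148% ± 0.00463 in DMSO worms.

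Per kilobase, ant-1.1 stood 81.7 ± 2.49 times above ucp-4 in rotenone worms and 75.7 ± 3.65 times in DMSO worms at 15 days, and 97.0 ± 3.62 times in rotenone worms and 95.5 ± 6.06 times in DMSO worms at 5 days (SD, n = 3 each). The ratio does not depend on the scaling of libraries. Its libraries of 15 days lay between 72.0 and 83.7, all below those of 5 days, which lay between 90.0 and 102.

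Rotenone against DMSO at 5 days, about the state of worms of that age after the exposure, gave small differences in the 2 abundant genes. With TMM factors ant-1.1 was lower in rotenone worms by a log2 difference of -0.09 ± 0.03 (edgeR quasi-likelihood test, adjusted p = 0.0282) and ucp-4 by -0.11 ± 0.04 (adjusted p = 0.0270), but with library totals as the scale the differences turned to 0.03 and 0.01. The direction of both thus depended on the scaling. The median of all tested genes itself was 0.03 with TMM factors and 0.15 with library totals. Relative to that median ant-1.1 stood at -0.12 and ucp-4 at -0.14. A change of scaling moves all genes nearly alike, so that these distances hold with each of 3 scalings by arithmetic and add no support. With TMM factors 32.1% of tested genes had a lower log2 difference than ant-1.1, and 28.7% a lower one than ucp-4. With TMM factors the rotenone and DMSO libraries of 5 days did not overlap for either gene. The share of all tested genes without such overlap was not counted, so nothing particular to these 2 genes is read from it. Each of the 3 sequencing lanes held 1 library of every group. Within the lanes, again with TMM factors, ant-1.1 differed by log2 values of -0.06, -0.17 and -0.04, and ucp-4 by -0.16, -0.05 and -0.13. The direction within lanes thus rests on the same scaling.

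Both calls depended on single libraries. For ant-1.1 the adjusted p was 0.0994 without DMSO replicate 2, 0.106 without rotenone replicate 1 and 0.110 without rotenone replicate 2, and 0.0817 in a fit of the 5-day groups alone. For ucp-4 it was 0.120 without DMSO replicate 1, 0.0539 without DMSO replicate 3, 0.0681 without rotenone replicate 1 and 0.0882 without rotenone replicate 3. Other settings kept both calls. The adjusted p of ant-1.1 was 0.00962 in edgeR with RLE factors, 0.00322 in edgeR with no filter and 0.000383 in DESeq2. That of ucp-4 was 0.01055, 0.039 and 0.00945 in the same order. The direction in these settings is the one that library totals turned. With TMM factors 2 of the 5 genes fell and 0 rose at 5 days, beside 23.3% of all tested genes that fell and 21.3% that rose, and nothing particular to the 5 genes is read from that count. With library totals 0 of the 5 were called, while 6498 of all tested genes (37.9%) rose and 1774 (10.3%) fell, against 3662 and 4006 with TMM factors.

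The 3 rare paralogues passed no test at 5 days. The log2 difference of rotenone minus DMSO was 0.07 ± 0.29 for ant-1.2 (adjusted p = 0.862) and 0.10 ± 0.30 for ant-1.3 (adjusted p = 0.849). For ant-1.4 it was 0.84 ± 0.82 (adjusted p = 0.434), from 10 counts in rotenone worms and 5 in DMSO worms, and it was 2.29 without DMSO replicate 2 and 0.35 without DMSO replicate 1. The intervals of ±2 SE ran from -0.50 to 0.65, from -0.50 to 0.69 and from -0.80 to 2.48, so that at this depth differences of the size of those of ant-1.1 and ucp-4 could not be seen in these genes.

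At 15 days none of the 5 genes was called with edgeR, where 0.28% of all tested genes rose and 0.128% fell. The log2 differences of rotenone minus DMSO were 0.04 ± 0.03 for ant-1.1 (adjusted p = 0.838), -0.02 ± 0.09 for ant-1.3 (adjusted p = 0.980), 0.05 ± 0.29 for ant-1.4 (adjusted p = 0.985) and -0.07 ± 0.04 for ucp-4 (adjusted p = 0.749). Before adjustment 1 gene, ant-1.2, had a p under 0.05, beside 1235 of 17166 tested genes in either direction. The difference of ant-1.2 was -0.84 ± 0.38 (edgeR, adjusted p = 0.651). Its rotenone and DMSO libraries did not overlap, but by a margin of 0.248 against 0.249 CPM, which were 13 and 12 counts. How many of all tested genes did not overlap at 15 days was not counted, so nothing is read from that. DESeq2 called neither ant-1.1 nor ucp-4 and gave no adjusted p for the 3 rare paralogues. The intervals of ±2 SE ran from -0.02 to 0.11 for ant-1.1 and from -0.15 to 0.01 for ucp-4.

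**Figure D3:**
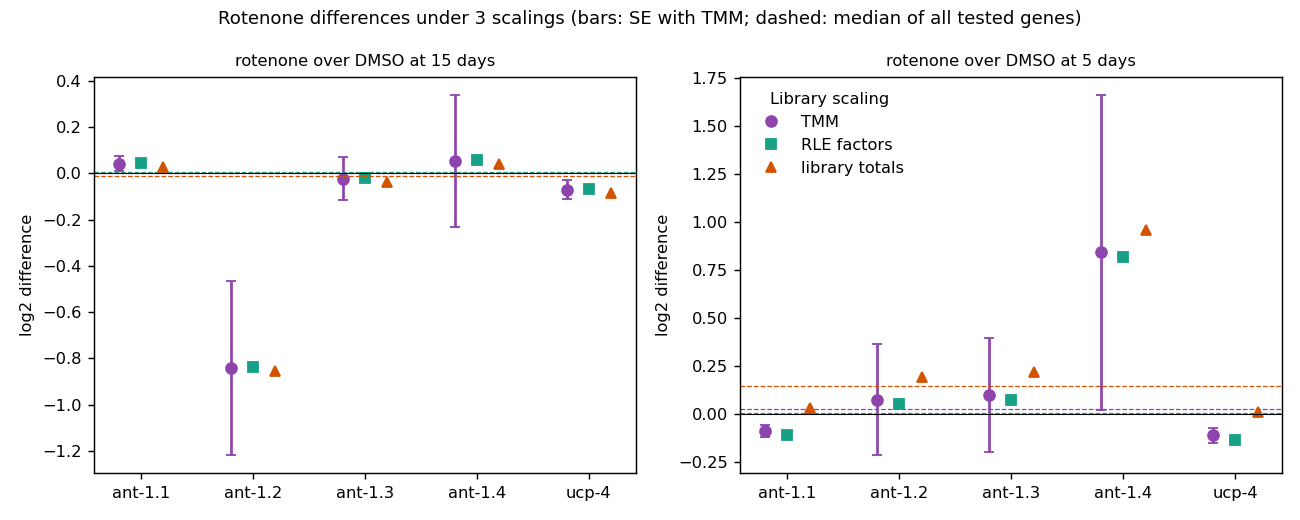
Log2 differences of rotenone over DMSO for the 5 genes at 15 days (left) and 5 days (right) with 3 scalings of the libraries; bars are the SE with TMM factors and dashed lines the median of all tested genes. At 5 days ant-1.1 and ucp-4 lie below 0 with TMM and RLE factors. With library totals they lie just above 0, at 0.03 and 0.01. Their distance below the median of all genes stays the same by arithmetic, since a change of scaling moves all genes nearly alike.

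The rotenone difference of ant-1.1 at 15 days exceeded that at 5 days by a log2 value of 0.13 ± 0.05 with TMM factors (edgeR interaction, adjusted p = 0.0384), and this was -0.003 with library totals, so that no direction holds. Relative to the median of all tested genes the interaction of ant-1.1 was 0.14 with TMM factors, which set that median at -0.01. With library totals the median was -0.15, and 940 genes (5.48%) had a positive and 4295 (25%) a negative interaction call, against 2643 and 1776 with TMM factors. The adjusted p of ant-1.1 was 0.0538 without DMSO replicate 2 of 5 days, 0.0994 without rotenone replicate 1 of 5 days and 0.0869 without rotenone replicate 2 of 5 days. It was 0.0706 without DMSO replicate 1 of 15 days, 0.0557 without DMSO replicate 3 of 15 days and 0.0908 without rotenone replicate 2 of 15 days. The interaction of ant-1.1 was 0.158 in edgeR with RLE factors (adjusted p = 0.0181) and 0.165 in DESeq2 (adjusted p = 0.00115). With edgeR and TMM factors the interaction was 0.04 ± 0.06 for ucp-4 (adjusted p = 0.632) and -0.92 ± 0.47 for ant-1.2 (adjusted p = 0.173). It was -0.12 ± 0.31 for ant-1.3 (adjusted p = 0.844) and -0.79 ± 0.86 for ant-1.4 (adjusted p = 0.555). Thus 1 of the 5 genes was called, beside 15.4% of all tested genes with a positive and 10.3% with a negative interaction.

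Genes with which the translocators work were described as 3 lists. ATP synthase makes the ATP that the translocators export, and of its 16 nuclear genes, regulators included, 12 fell and 0 rose after rotenone at 5 days with TMM factors, with a median log2 difference of -0.13, but 2 fell and 2 rose with library totals, with a median of -0.01. Of all tested genes, 23.3% fell and 21.3% rose with TMM factors, and 10.3% fell and 37.9% rose with library totals. The median over all tested genes was 0.03 with TMM factors and 0.15 with library totals. It was above that of the list with both, but a change of scaling moves all genes nearly alike, so the second adds nothing. The largest fall was that of F58F12.1, the delta subunit, at -0.21 ± 0.02 (edgeR, adjusted p = 1.16e-06), and it was -0.09 with library totals (adjusted p = 0.00345). At 15 days 0 of the 16 were called with edgeR under TMM factors, RLE factors or library totals, or with DESeq2. With TMM factors 3 were higher at an unadjusted p under 0.05, and the median was 0.02. Such a p, in either direction, was found for 1235 of 17166 tested genes. The interaction was positive in 9 of 16 with TMM factors, in 12 with RLE factors and in 13 with DESeq2, and called in 0 with library totals. Of all tested genes 15.4% had a positive call with TMM factors and 5.48% with library totals. Positive calls over all genes also grew, from 2643 with TMM factors to 3131 with RLE factors and 3048 with DESeq2.

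Genes of energy buffering and exchange formed a list of 9, with the outer membrane channel vdac-1, adenylate and nucleoside diphosphate kinases, the phosphate carrier and AMP-activated protein kinase. At 5 days 1 rose and 4 fell after rotenone with TMM factors (median log2 difference -0.06), and 4 rose and 3 fell with library totals (median 0.06). Of all tested genes, 21.3% rose and 23.3% fell with TMM factors, and 37.9% rose and 10.3% fell with library totals. The rise was that of argk-1, an arginine kinase that buffers ATP through phosphoarginine, at 0.54 ± 0.04 (edgeR, adjusted p = 9.3e-09; 0.66 with library totals). The largest fall was that of mcu-1, the calcium uniporter, at -0.32 ± 0.03 (adjusted p = 1.23e-07; -0.20 with library totals). For vdac-1 the difference was 0.00 ± 0.03 (adjusted p = 0.958). At 15 days 0 of the 9 were called with edgeR under TMM factors, and 1 fell with library totals and with DESeq2. With TMM factors 1 was lower at an unadjusted p under 0.05, beside 1235 of 17166 tested genes in either direction. The interaction was positive in 3 and negative in 1 with TMM factors, and positive in 1 and negative in 3 with library totals, where 15.4% and 10.3% of all tested genes had such calls with TMM factors and 5.48% and 25% with library totals.

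Other mitochondrial carriers, relatives of the translocators by family, formed a list of 16 that shares the phosphate carrier F01G4.6 with the list before. At 5 days 8 fell and 0 rose after rotenone with TMM factors (median log2 difference -0.11), and 3 fell and 5 rose with library totals (median 0.01). The shares over all tested genes were 23.3% that fell and 21.3% that rose with TMM factors, and 10.3% and 37.9% with library totals. The 5 carriers that rose with library totals are near that share, and nothing about the list is read from them. The largest fall was that of slc-25A18.2, of the glutamate carrier kind, at -0.44 ± 0.05 (edgeR, adjusted p = 7.72e-07; -0.32 with library totals). At 15 days 0 of the 16 were called with edgeR under TMM factors, RLE factors or library totals, or with DESeq2. With TMM factors 0 had an unadjusted p under 0.05, beside 1235 of 17166 tested genes. The interaction was positive in 6 and negative in 0 with TMM factors, and positive in 2 and negative in 5 with library totals, beside 15.4% and 10.3% of all tested genes with TMM factors and 5.48% and 25% with library totals.

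**Figure D4:**
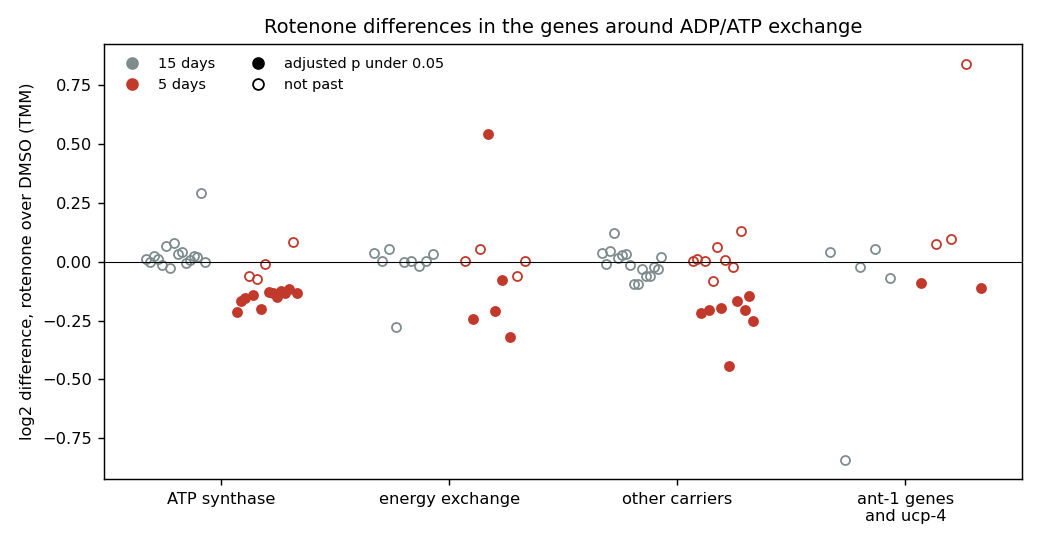
Log2 differences of rotenone over DMSO with TMM factors (vertical axis) for the genes of 3 lists and the 5 genes themselves, at 15 days (grey) and 5 days (red); filled points have an adjusted p under 0.05. At 15 days no point is filled; at 5 days 12 of 16 ATP synthase genes, ant-1.1 and ucp-4 are filled below 0, whereas with library totals 2 ATP synthase genes fell, 2 rose, and ant-1.1 and ucp-4 stood at 0.03 and 0.01.

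With age the lists had no common direction. In DMSO worms 8 of the 16 ATP synthase genes had a positive and 8 a negative log2 difference of 15 minus 5 days (median -0.02), and after rotenone 12 had a positive and 4 a negative one (median 0.13), or 8 and 8 with library totals. The 9 genes of energy exchange were positive in 6 and negative in 3 in DMSO worms (median 0.14), and positive in 7 and negative in 2 after rotenone (median 0.17). The 16 other carriers were positive in 6 and negative in 10 in DMSO worms (median -0.05), and positive in 11 and negative in 5 after rotenone (median 0.09). With RLE factors 9 of these carriers were positive and 7 negative in DMSO worms (median 0.01), and with library totals 7 were positive and 9 negative after rotenone (median -0.02). The log2 difference of argk-1 was -2.03 ± 0.05 in DMSO worms and -2.85 ± 0.05 after rotenone, the lowest of its list in both.

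Another pair of paralogues in this machinery stood in other proportions at 15 than at 5 days. These were asb-1 and asb-2, which encode the germline and the somatic form of subunit b of ATP synthase. Opposite directions with age were not particular to them in their list. In DMSO worms the log2 difference of 15 minus 5 days with TMM factors was 0.13 ± 0.03 for asg-1 and -0.95 ± 0.03 for asg-2 (SE). The level of asb-1 was 376, 399 and 380 CPM in rotenone worms and 386, 396 and 385 CPM in DMSO worms at 15 days, and 202, 203 and 189 CPM in rotenone worms and 222, 226 and 206 CPM in DMSO worms at 5 days. The level of asb-2 was 106, 112 and 105 CPM in rotenone worms and 103, 102 and 102 CPM in DMSO worms at 15 days, and 187, 188 and 191 CPM in rotenone worms and 197, 207 and 192 CPM in DMSO worms at 5 days. All libraries of 15 days were higher than all of 5 days for asb-1 and lower for asb-2. Per kilobase, asb-1 over asb-2 was 4.13 ± 0.0532 in rotenone worms and 4.38 ± 0.0904 in DMSO worms at 15 days, and 1.21 ± 0.0603 in rotenone worms and 1.26 ± 0.0310 in DMSO worms at 5 days (SD, n = 3 each). After rotenone at 5 days asb-1 differed by -0.14 ± 0.04 (edgeR, adjusted p = 0.00336) and asb-2 by -0.07 ± 0.03 (adjusted p = 0.0570), but by -0.02 and 0.05 with library totals.

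**Figure D5:**
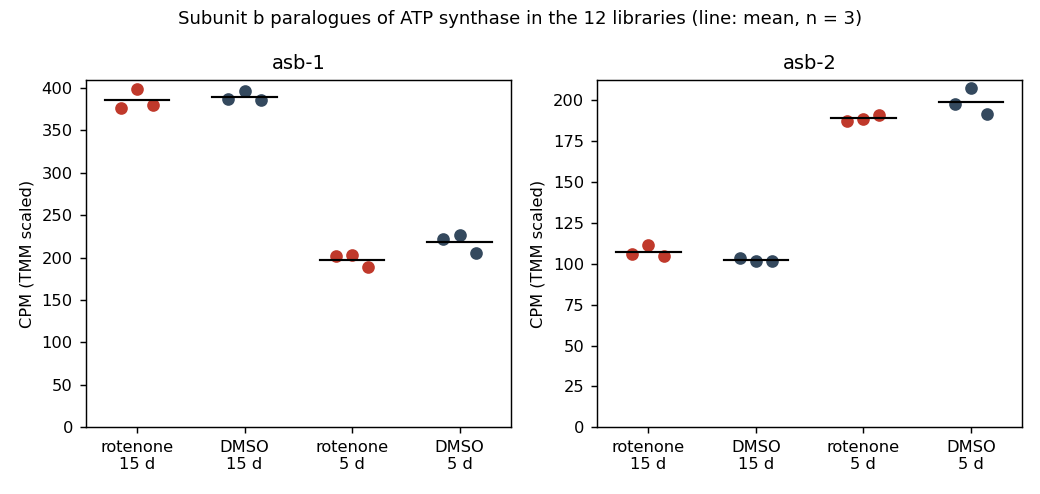
Levels of asb-1 and asb-2 in CPM (vertical axes from 0) in the 12 libraries, with group means as lines. The asb-1 libraries lie between 376 and 399 CPM at 15 days and between 189 and 226 CPM at 5 days, and the asb-2 libraries between 102 and 112 CPM at 15 days and between 187 and 207 CPM at 5 days.

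Markers of sperm were low but present in all groups. Of 8 markers, 6 passed the filter and none was at 0 in any group, and their summed level ran from 13.5 to 15.4 CPM in rotenone worms and from 12.5 to 14.7 CPM in DMSO worms at 15 days, and from 10.2 to 11.04 CPM in rotenone worms and from 8.44 to 9.47 CPM in DMSO worms at 5 days. Among them gsp-3, a protein phosphatase of sperm, averaged 0.785 CPM in rotenone worms and 0.541 CPM in DMSO worms at 15 days, and 0.0326 CPM in rotenone worms and 0.0274 CPM in DMSO worms at 5 days. Its near-identical relative gsp-4 averaged 0.723, 0.497, 0.432 and 0.926 CPM in the same order of groups, and as near copies both values are uncertain. Of the 6 tested markers, 5 had a positive log2 difference of 15 minus 5 days in DMSO worms and 5 after rotenone. The summed level of 8 early embryo markers ran from 16.6 to 18.7 CPM in rotenone worms and from 15.4 to 16.5 CPM in DMSO worms at 15 days, and from 15.7 to 16.3 CPM in rotenone worms and from 13.03 to 13.95 CPM in DMSO worms at 5 days. Of these 8, 4 had a positive log2 difference of 15 minus 5 days in DMSO worms (median of the list -0.27) and 3 after rotenone (median -0.53), and the sum was carried by tbx-37 and tbx-38. The level of tbx-38 averaged 6.17 CPM in rotenone worms and 5.30 CPM in DMSO worms at 15 days, and 1.53 CPM in rotenone worms and 1.09 CPM in DMSO worms at 5 days. Under each treatment the summed levels of the sperm and of the early embryo markers were thus higher at 15 days. Single markers of both lists went both ways. The part of either list in the age difference of ant-1.3 and ant-1.4 was not tested.

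The genes whose pattern over the 12 libraries was nearest to that of each gene were taken by the root mean square difference of centred log2 CPM among 13207 genes with at least 1 CPM on average. For ant-1.1 these were tpst-1 at 0.028 and R53.4, a subunit of ATP synthase, at 0.030. The level of R53.4 averaged 543 CPM in rotenone worms and 534 CPM in DMSO worms at 15 days, and 533 CPM in rotenone worms and 594 CPM in DMSO worms at 5 days. For ucp-4 they were ints-4, of the Integrator complex, at 0.023 and the ubiquitin protease gene usp-48 at 0.029.

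The rare paralogues had no neighbour as close, but low counts add counting error to their distances. The compared genes also had at least 1 CPM on average, more than ant-1.2 and ant-1.4 had in any group. How far depth accounts for the distances was not tested. For ant-1.3 the nearest were R07C12.1 at 0.254 and dhs-26, a short-chain dehydrogenase gene, at 0.345. The level of R07C12.1, also on chromosome IV, averaged 28.4 CPM in rotenone worms and 27.8 CPM in DMSO worms at 15 days, against 1.89 CPM in rotenone worms and 1.65 CPM in DMSO worms at 5 days. For ant-1.4 they were the histone gene his-1 at 0.341, one of a family of near-identical copies, and gipc-1 at 0.352. For ant-1.2 they were the cytochrome P450 gene cyp-33D1 at 0.272 and C25G6.3 at 0.275.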

How the data were processed

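The submitters' processing notes name featureCounts 1.4.6-p4, STAR 2.4.1d, bcl2fastq 1.8.3 and genome build WBcel235. Settings, strand and the handling of multi-mapped reads are not given in the sources used here. The authors deposited raw counts per gene, whole numbers in 46748 genes and 12 columns. The authors also deposited a table of RPKM values, most of which were scaled by the total of another library, so it served only to read the gene lengths it implies. Symbols, positions and exon lengths came from Ensembl release 115, which holds 46449 of the identifiers.

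Counts were fitted in R 4.3.3 with edgeR 4.0.16: filterByExpr with a minimum count of 10 (17166 genes kept), TMM factors, 1 quasi-likelihood model of 4 groups, adjusted p under 0.05 (Benjamini-Hochberg over all tested genes). The standard error is the log2 difference divided by the square root of F. Log2 CPM for the nearest genes used a prior count of 2. The biological coefficient of variation was 3.41%. Counting intervals of ratios are exact binomial (Clopper-Pearson) at 95%, and a count of 0 allows up to 3 counts. Shares were compared with exact permutation tests (SciPy 1.17.1). The alternatives were RLE factors, library totals, no filter, DESeq2 1.42.0, a lane block, 2-group fits, each library left out, implied lengths and raw counts for shares.

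The members and lists were chosen with earlier results of these data known. The list of other carriers was taken by symbol. Named genes were all members, the 2 nearest genes of each, the largest rise and fall of each list among called genes, and asb-1 and asb-2. The genes vdac-1, asg-1, asg-2, gsp-3, gsp-4, tbx-37, tbx-38, asp-1, pept-1, glh-1 and cbd-1 were added after their values were seen. Libraries with the same replicate number shared a sequencing lane, per the labels. Deviations from group means correlated at a median of 0.017 in 18 pairs of the same lane (-0.046 to 0.182) and -0.0045 in 36 other pairs. No gene or protein sequence is printed.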

Additional observations from a re-analysis of the deposited data

Results flagged for a closer look

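The edgeR interaction of rotenone and age with TMM factors was called for 9 of the members, named list genes and nearest genes (adjusted p under 0.05, 3 libraries a group). Tissue markers are left out here. Of all tested genes 15.4% had a positive and 10.3% a negative call. The naming rule took F58F12.1, mcu-1, argk-1 and slc-25A18.2 as the largest called interactions of their lists, so their calls follow from that choice. The log2 difference at 15 days minus that at 5 days was 0.131 for ant-1.1, 0.226 for F58F12.1, 0.143 for asb-2, 0.302 for mcu-1, -0.817 for argk-1 and 0.347 for slc-25A18.2. Among the genes nearest in pattern it was 0.179 for R53.4, -0.759 for C25G6.3 and -0.714 for dhs-26. The nearest genes were picked over these same 12 libraries, so a likeness to the interaction of a member follows from that choice. The 9 calls are therefore not read against the shares of all tested genes. With library totals mcu-1 (0.17), argk-1 (-0.95), slc-25A18.2 (0.21), C25G6.3 (-0.89) and dhs-26 (-0.85) kept their side of the threshold, while ant-1.1 (-0.003), F58F12.1 (0.09), asb-2 (0.01) and R53.4 (0.045) did not.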

How the results depend on the processing

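Library totals in place of TMM factors turned the difference at 5 days to 0.031 for ant-1.1 and 0.007 for ucp-4, so that 0 of the 5 genes were called, and turned the interaction to -0.003 for ant-1.1 and -0.092 for ucp-4, again with 0 called. A fit of the 5-day groups alone gave -0.088 for ant-1.1 (adjusted p = 0.0817) and 1 called gene. RLE factors turned the difference of age of ant-1.1 after rotenone to 0.070. With each library left out in turn, the difference at 5 days ran from -0.106 to -0.062 for ant-1.1, from -0.135 to -0.084 for ucp-4, from -0.075 to 0.425 for ant-1.2, from -0.061 to 0.431 for ant-1.3 and from 0.353 to 2.291 for ant-1.4, with 0 to 1 genes called. At 15 days it ran from -0.060 to 0.024 for ant-1.3 and from -0.130 to 0.373 for ant-1.4. The interaction ran from 0.109 to 0.152 for ant-1.1, from -0.449 to 0.043 for ant-1.3 and from -2.234 to -0.300 for ant-1.4, with 0 to 1 genes called. The difference of age in DMSO worms ran from -0.531 to 0.084 for ant-1.2 and from 3.626 to 5.569 for ant-1.4. The summed share of the rare paralogues was 0.232% in rotenone worms at 15 days and 0.0246% at 5 days with implied lengths. By raw counts it was 0.173% in rotenone worms and 0.184% in DMSO worms at 15 days, and 0.0215% in rotenone worms and 0.0181% in DMSO worms at 5 days. The cause of these shifts was not tested. The lane as a replicate block gave -0.089 for ant-1.1 at 5 days (adjusted p = 0.0202) and changed no call of the 5 genes.

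Depth limits the rare paralogues, with 0 to 27 counts per library of 5 days. DESeq2 gave no adjusted p for ant-1.2 in any contrast, for ant-1.3 at 15 days or for ant-1.4 at 15 days and in the interaction. Without the 15-day libraries ant-1.4 did not pass the filter.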
